A study of Drosophila melanogaster with 8 samples.

Results

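The change in ribosome loading that follows depletion of DENR was described across genes in Drosophila melanogaster S2 cells, a haemocyte (blood cell) line first grown from embryos. Ribosome loading was taken as the log2 signal in ribosome-bound RNA minus that in total RNA, and the loading difference as the loading in DENR knockdown cells minus the loading in control cells, an interaction of treatment and RNA fraction. All 8 arrays of the series entered it. The genes were the 11981 with a single symbol on the array, each represented by its brightest non-control probe set, and 8164 of them were bright enough to be tested. They were tested among 10262 features in all, the other 2098 being probe sets with several gene symbols or none.

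All cells were labelled as wildtype S2 cells, and no untreated cells were analysed here. The 4 groups, with 2 arrays each, were total RNA of cells given double-stranded RNA against GFP, total RNA of cells given double-stranded RNA against DENR, and, from cells of each treatment, the RNA of the pooled 80S and polysome fractions of a profile. GFP has no counterpart in the fly genome, so the control cells carried double-stranded RNA without a target. How long the cells were treated is not stated in the labels. The ribosome-bound fraction pooled transcripts with a single ribosome and with many, so that loading measures the share of a transcript on ribosomes and not the number of ribosomes on it. The authors summarised the probes with RMA, a procedure that in general brings arrays to one distribution, so that each value is relative to the other transcripts of its array.

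DENR binds MCTS1, and together they help ribosomes that have translated a short upstream open reading frame to start again at the main coding sequence of the same mRNA. eIF2D is a single protein that carries domains related to both. In flies, DENR has been linked to the translation of growth regulators in proliferating cells, the receptors for insulin and ecdysone among them.

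The arrays differed in ways that touch the loading difference. The leading principal component held 65.8% of the variance, and along it both ribosome-bound groups lay between 22.3 and 29.4 and the total RNA arrays lay below 0. The first knockdown total RNA array lay at -9.0, nearer to the ribosome-bound arrays than the second (-27.3) and both control total RNA arrays (-29.6 and -35.1). What set this array apart was not tested. Counts, signal bins, and part of the classes and leading genes are given below with and without it. All 11 defining haemocyte markers with a probe set were among the tested features, with mean log2 signals from 3.52 (NimC1) to 10.36 (vkg, a collagen IV chain). Of these 11, He, Hml, Sr-CI and NimC1 fell after DENR knockdown in both fractions (limma adjusted p under 0.05), by between 1.21 and 2.85 in total RNA on the log2 scale, and none of the 11 rose. The 11 defining markers of neurons, muscle, fat body and germline that could be named had mean log2 signals from 1.63 to 3.41, where the array medians ran from 2.32 to 2.48. Longer lists held brighter members. The 22 tested germline and piRNA genes had a median log2 signal of 5.83. Tested markers of neurons, muscle and fat body had medians of 2.93, 3.12 and 2.75, with Zasp52 of the muscle list at 6.01.

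DENR itself, the target of the double-stranded RNA, was examined first, and its own changes cannot be told apart from that targeting. In total RNA it read 8.28 and 8.18 in control cells and 7.38 and 7.60 in knockdown cells, as log2 signals. In ribosome-bound RNA it was 8.41 and 8.26 in control cells and 5.40 and 4.46 in knockdown cells. The knockdown arrays lay below the control arrays in both fractions, and the gap was wider on ribosomes. DENR fell in ribosome-bound RNA (log2 change -3.40 ± 0.25, SE, n = 2 per group, limma adjusted p = 0.000203). In that fraction 1.34% of all tested features were called, rising or falling. The difference of DENR in total RNA (-0.74 ± 0.25, limma adjusted p = 0.170), where 1.58% of features were called, did not pass. The loading difference of DENR was -2.66 ± 0.35, with a limma adjusted p = 0.101 and a range of 0.00428 to 0.461 over the alternatives. It was -3.13 without the first knockdown ribosome-bound array, which was called, and -2.19 without the second, which was not.

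The partners of DENR and the receptors had no called loading difference, nor had any other tested feature in this fit. MCTS1 had -0.27 ± 0.23 and eIF2D 0.33 ± 0.19 (SE, n = 2 per group). For eIF2D, each of the 16 ways of taking 1 array per group gave a value above 0, from 0.10 to 0.56. For MCTS1 these values ran from -0.73 to 0.19. InR, the insulin receptor, read 3.33 and 3.52 in control total RNA, 3.09 and 3.25 in knockdown total RNA, 3.05 and 3.19 in control ribosome-bound RNA and 2.83 and 2.99 in knockdown ribosome-bound RNA. Both knockdown arrays of InR lay below both control arrays in each fraction, by a similar margin, and its loading difference was 0.04 ± 0.20. It turned below 0 in 6 of the 18 alternatives in which it was tested. EcR, the ecdysone receptor, had 0.43 ± 0.38, with a range of -0.60 to 1.46 over the 16 ways, so that its sign differed among them. The mean log2 signals of InR (3.16) and EcR (3.17) lay little above the array medians, so a loading difference of either receptor may not be visible. mbc is not analysed here.

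Across all 10262 features, the loading difference had a median of -0.02 and an interquartile range of -0.26 to 0.18, beside a median SE of 0.22. In the limma fit with Benjamini-Hochberg adjustment, 0 features (0.0%) had an adjusted p under 0.05, and the smallest was 0.0653. At an unadjusted p under 0.05 there were 1022 features (9.96%), against 513 by chance if none differed. The features are not independent, so 513 is a rough guide, and the excess over it was not tested. It did not hold in every fit with a single array left out. Without the first knockdown total RNA, second control ribosome-bound or first knockdown ribosome-bound array, the total lay below 513. Such fits also rest on fewer arrays. Of the 1022 features, 333 (3.24%) were higher and 689 (6.71%) were lower after DENR knockdown. The lower share of 67.4% became 51.4% with quantile normalization over all arrays, 59.9% with cyclic loess and 73.7% with array medians centred. A loading difference of at least 2-fold was read for 77 features (0.75%), 10 upwards (0.0974%) and 67 downwards (0.653%).

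**Figure D1:**
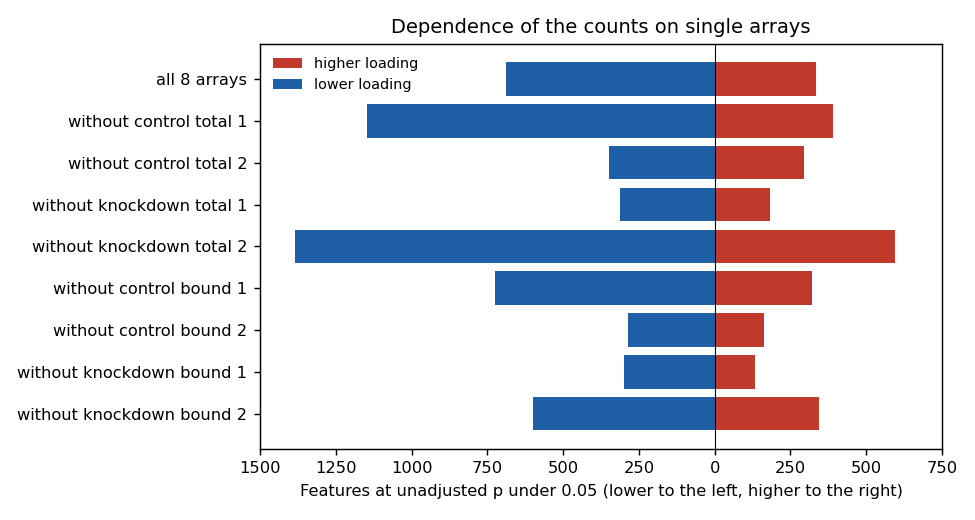
Number of features at an unadjusted p under 0.05 in the loading comparison (horizontal axis, lower loading to the left and higher to the right) with all 8 arrays and with each array left out in turn. The lower count runs from 286 without the second control ribosome-bound array to 1384 without the second knockdown total RNA array, beside 689 with all arrays.

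The lower features drew on both fractions. Over the 689, the median log2 change in total RNA was 0.45 and that in ribosome-bound RNA -0.25. In 567 of them (82.3%) the changes had opposite signs, and in 465 (67.5%) the change in total RNA was the larger. Over the 333 higher features, the same medians were -0.29 and 0.28, with opposite signs in 259 (77.8%) and the larger change in total RNA in 168 (50.5%). Over all features, 45.2% had opposite signs and 56.1% the larger change in total RNA. The loading difference is built from these changes, so their signs among selected features follow in part from the selection.

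The leading genes are the 14 with a lower and the 14 with a higher loading difference of smallest p, none of which was called. The lower ones had differences from -2.66 (DENR) to -0.82 and the higher ones from 0.73 to 1.57. For all 28, each of the 16 ways of taking 1 array per group gave the same sign, which held for 2513 of all features (24.5%), 11.6% above 0 and 12.9% below. Of the 14 higher genes 8 had a mean log2 signal under 4, and of the 14 lower ones 6. Because these genes were chosen by their p in this fit, that count is a description and supports nothing.

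**Figure D2:**
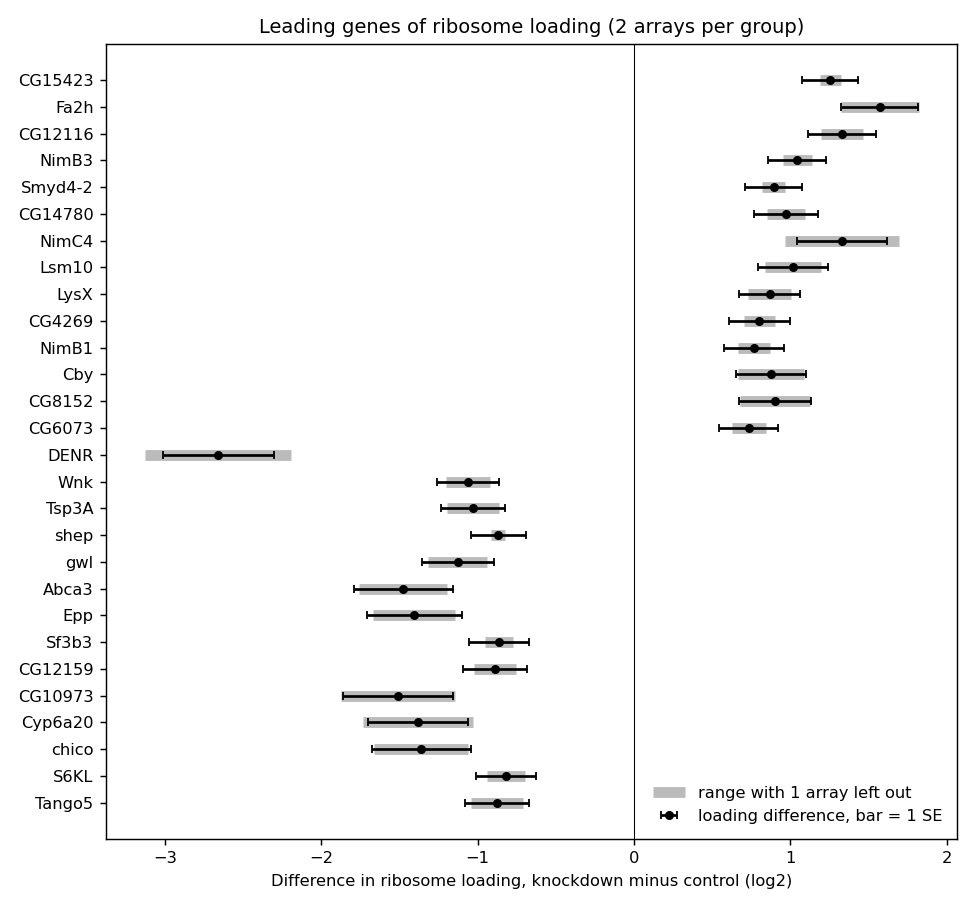
Loading difference (horizontal axis, log2, knockdown minus control) of the 14 higher and 14 lower leading genes. Points are values with all 8 arrays, thin bars 1 SE, and grey bars the range of the value when each array was left out in turn. DENR lies lowest at -2.66, and Fa2h highest at 1.57.

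A first set of lower genes had most of the difference in ribosome-bound RNA. Sf3b3, a subunit of the SF3b complex that recognises the branch site in splicing, read 8.75 and 8.82 on ribosomes in control cells and 7.62 and 7.60 in knockdown cells, against 8.72 and 8.54, and 8.40 and 8.22, in total RNA. It fell in ribosome-bound RNA (-1.18, limma adjusted p = 0.00313), and its loading difference was -0.86 ± 0.19 (SE, n = 2 per group). Tango5, named for a role in transport through the Golgi, read 4.01 and 4.34 against 3.27 and 3.30 on ribosomes. All of its 4 total RNA arrays lay between 3.02 and 3.15, so that its loading difference of -0.88 ± 0.21 came from the ribosome-bound arrays. chico, the insulin receptor substrate, read 4.66 and 5.15 against 3.94 and 3.67 on ribosomes, and 2.40 and 3.01 against 3.06 and 2.87 in total RNA. Its total RNA arrays overlapped and its ribosome-bound arrays did not, and its loading difference was -1.36 ± 0.32. The total RNA signals of chico lay near the array medians, where a low level cannot be told apart from background. Those of Tango5 lay little above them. CG12159 had a loading difference of -0.89 ± 0.21, with -0.75 of it on ribosomes, where the fall was called (limma adjusted p = 0.0398).

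A second set had most of the difference in total RNA. gwl, the Greatwall kinase that keeps the PP2A phosphatase in check during mitosis, read 3.09 and 3.12 in control total RNA and 4.34 and 3.97 after knockdown, while its 4 ribosome-bound arrays lay between 4.41 and 4.69. It rose in total RNA (1.05, limma adjusted p = 0.0144) beside a change of -0.08 on ribosomes, and its loading difference was -1.13 ± 0.23. S6KL, a kinase related to S6 kinase, had a total RNA mean of 3.96 in control cells and read 4.91 and 4.67 after knockdown, while all of its ribosome-bound arrays lay between 4.65 and 4.74. Its loading difference was -0.82 ± 0.19. Cyp6a20, a cytochrome P450, rose in total RNA by 1.15, with arrays of 3.95 and 4.08 against 5.53 and 4.82. Epp rose there by 1.05, and these genes had loading differences of -1.38 ± 0.32 and -1.41 ± 0.30. Without the first knockdown total RNA array, the loading differences were -0.94 for gwl, -0.70 for S6KL, -1.03 for Cyp6a20 and -1.14 for Epp. Each was nearer to 0 than with all arrays.

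In the remaining lower genes the fractions moved apart, and neither change passed the test alone. Wnk, a kinase that controls ion cotransporters, read 2.55 and 2.27 against 2.97 and 2.93 in total RNA and 4.08 and 4.23 against 3.65 and 3.61 on ribosomes. The groups did not overlap in either fraction, and the loading difference was -1.06 ± 0.20. Tsp3A, a tetraspanin, read 2.52 and 2.52 against 3.20 and 3.16 in total RNA and 3.50 and 3.17 against 2.92 and 3.01 on ribosomes. In control cells the total RNA signals of Tsp3A and Wnk lay near the array medians, where a low level cannot be told apart from background. shep, an RNA-binding protein, had -0.87 ± 0.17 on its brightest probe set, and its 3 other probe sets read 0.05, 0.47 and 0.80. Abca3, of the ABC transporter family, had -1.48 ± 0.32. CG10973 had -1.51 ± 0.35, and its mean total RNA signal in control cells (2.67) also lay near the array medians. Its total RNA groups overlapped, at 2.97 and 2.36 in control cells and 3.64 and 2.90 after knockdown. Without the first knockdown total RNA array, the loading difference was -1.20 for Abca3 and -1.14 for CG10973.

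**Figure D3:**
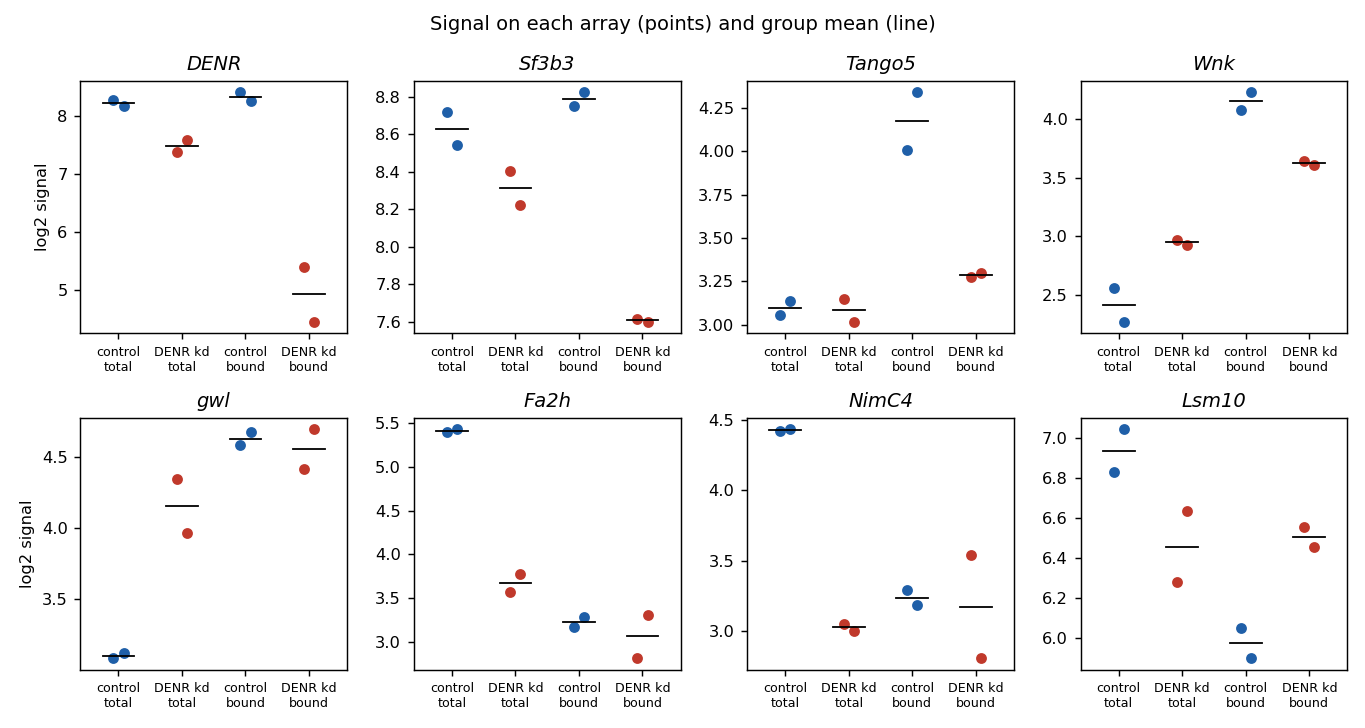
Log2 signal (vertical axis) of 8 genes on each of the 8 arrays, with control cells in blue and DENR knockdown cells in red, total RNA on the left and ribosome-bound RNA on the right of each panel. Points are arrays and lines group means. DENR, Sf3b3 and Tango5 separate mainly on ribosomes, gwl, Fa2h and NimC4 mainly in total RNA, and Wnk and Lsm10 in both fractions.

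Among the 14 higher genes, 7 fell in total RNA and did not lose as much on ribosomes. Fa2h, a fatty acid hydroxylase, read 5.40 and 5.43 in control total RNA and 3.58 and 3.78 after knockdown, while its ribosome-bound arrays lay between 2.81 and 3.31. Its loading difference of 1.57 ± 0.24 therefore arose in total RNA, and its ribosome-bound signal in both treatments lay little above the array medians. CG12116 read 5.45 and 5.32 against 3.87 and 4.11 in total RNA and between 3.15 and 3.43 on ribosomes. CG15423 read 4.85 and 4.93 against 3.54 and 3.67, with ribosome-bound arrays between 3.19 and 3.26. Their loading differences were 1.33 ± 0.22 and 1.26 ± 0.18. LysX, a lysozyme, fell in total RNA by 0.67 on the log2 scale and had a loading difference of 0.87 ± 0.19. In control cells the ribosome-bound means of CG12116, CG15423 and LysX were 3.35, 3.25 and 2.42. These also lay near the array medians, so for them, as for Fa2h, a fall on ribosomes may not be visible.

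The other 3 of these 7 belong to the Nimrod family, whose EGF-repeat proteins act in phagocytosis and are made by haemocytes. NimC4, a receptor for dying cells, read 4.42 and 4.43 against 3.05 and 3.01 in total RNA, and 3.29 and 3.19 against 3.54 and 2.81 on ribosomes. Its ribosome-bound groups overlapped, and its loading difference was 1.33 ± 0.29. NimB3, a secreted member, fell in both fractions, by 1.86 in total RNA and by 0.82 on ribosomes, with a loading difference of 1.04 ± 0.18. NimB1 fell in total RNA by 1.23 and had a loading difference of 0.77 ± 0.19. The ribosome-bound means of NimC4 (3.24) and NimB1 (3.28) in control cells lay little above the array medians, that of NimB3 (4.86) further above. For NimC4 and NimB1 a fall on ribosomes may therefore not be visible. All 7 tested NimB and NimC genes fell in total RNA, and NimB2, NimB3, NimB4, NimB5 and NimC1 also fell on ribosomes, whereas the ribosome-bound changes of NimC4 and NimB1 were not called. He, Hml and Sr-CI, markers of haemocytes outside this family, fell in both fractions as well. Over the 40 tested haemocyte markers 11 fell in total RNA and 9 on ribosomes, with 0 rising in either. Over all tested features, 1.58% were called in total RNA and 1.34% on ribosomes, in either direction. The part of these falls in the loading differences was not tested. NimB5 fell by a similar amount in both fractions (-1.60 and -1.52), and so did NimC1 (-1.21 and -1.22), so that their loading differences were 0.08 ± 0.18 and 0.00 ± 0.22. NimB4, at -1.76 in total RNA and -1.22 on ribosomes, had 0.55 ± 0.25, and NimB2, at -1.27 and -1.06, had 0.21 ± 0.26. The phagocytosis receptors eater and drpr had no called change in either fraction, and loading differences of -0.17 ± 0.25 and -0.30 ± 0.33. With each array left out in turn, the loading difference of NimB2 ran from -0.08 to 0.51, that of NimC1 from -0.15 to 0.14 and that of eater from -0.37 to 0.02. Differences between these genes were not tested. The members outside the leading genes were picked to complete the family, with their values known.

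The remaining higher genes lay lower in total RNA and higher on ribosomes. Lsm10, a component of the U7 particle that trims histone mRNA 3′ ends, read 6.83 and 7.05 against 6.28 and 6.63 in total RNA and 6.05 and 5.90 against 6.56 and 6.46 on ribosomes. The groups did not overlap in either fraction, and the loading difference was 1.02 ± 0.22. Smyd4-2, of the SET and MYND family of methyltransferases, read 4.19 and 4.12 against 3.70 and 3.82 and then 3.11 and 3.17 against 3.72 and 3.57. Its loading difference was 0.89 ± 0.18. CG14780 (0.97 ± 0.21), CG8152 (0.90 ± 0.23) and CG6073 (0.73 ± 0.19) had the same arrangement at log2 signals between 5.21 and 6.94. CG4269 had 0.80 ± 0.20 and Cby, a protein of the ciliary base that binds beta-catenin, 0.88 ± 0.22.

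The loading difference varied with signal level. The tested features were split into 5 bins of equal size by mean log2 signal. In the dimmest bin (2.12 to 2.57) the median loading difference was 0.07, in the next 0.05, in the middle bin (3.91 to 6.02) -0.18, and in the 2 brightest -0.09 and -0.05. In the middle bin, 13.1% of features were lower at an unadjusted p under 0.05 and 3.27% were higher. In the dimmest bin these shares were 1.36% and 2.63%. Without the first knockdown total RNA array the median of the middle bin was -0.07 and that of the dimmest 0.01. Of the 34 functional classes described below, 9 have a median signal within the range of this middle bin, with class medians of the loading difference from -0.46 to -0.01. They are the kinases, transcription factors, Rab GTPases, amino acid transporters and germline genes and the insulin, Hippo, EGFR and Wingless pathways.

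**Figure D4:**
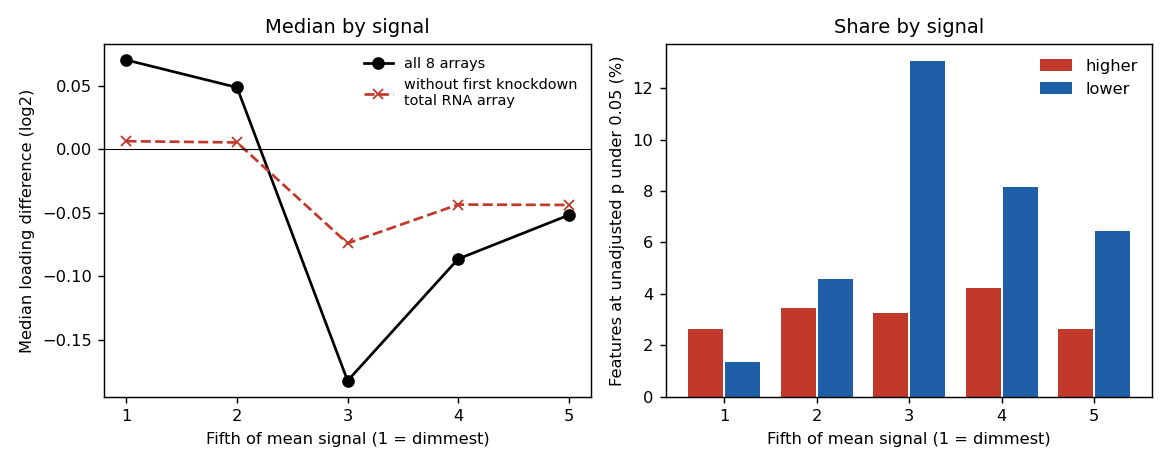
Left, median loading difference (log2) by signal bin (1 dimmest, 5 brightest), with all 8 arrays (black) and without the first knockdown total RNA array (red). Right, percent of features at an unadjusted p under 0.05, higher (red) and lower (blue). The middle bin has the lowest median, -0.18, and the largest share of lower features, 13.1%.

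Functional classes were then described by their counts and medians, to be read beside the median of -0.02 and the shares of 3.24% higher and 6.71% lower over all features. For the 9 classes with a median signal in the middle bin, that bin is the nearer comparison. It had a median of -0.18, with 3.27% higher and 13.1% lower. No member of any class was called, and numbers of higher and lower members are those at an unadjusted p under 0.05. Counts of members above or below 0 compare with 4862 above and 5400 below among all 10262 features. Some classes share members, among them 5 tested genes that are on both the kinase and the JNK lists. The translation machinery came first. Of 34 cytoplasmic ribosomal proteins, 0 were higher and 0 lower, with a median loading difference of 0.01. Mitochondrial ribosomal proteins, which translate the mitochondrial genome, had 52 of 71 members above 0 and a median of 0.16, with 2 higher, mRpS35 (0.46) and mRpS29 (0.43), and 0 lower. Of 41 initiation factors, 2 were lower, and the median was -0.08. The 2 were DENR, itself the target of the double-stranded RNA, and eIF2beta (-0.64), a subunit of the factor that delivers the initiator tRNA. Of 9 elongation and termination factors, 3 were lower, eEF1delta (-0.51), the termination factor eRF3 (-0.89) and eEF5 (-0.44), with a median of -0.21. The 30 aminoacyl-tRNA synthetases had 4 lower and 1 higher and a median of -0.01, with AspRS-m, IleRS and GluProRS at -0.91, -0.92 and -0.55.

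Among classes of protein folding and turnover, the proteasome and the CCT chaperonin had medians near that of all features, and the other chaperones and the stress response had lower ones. The 26 proteasome subunits had 20 members below 0 and a median of -0.07, and Rpn5 (-0.65) and Prosbeta6 (-0.40) were lower. The 8 CCT chaperonin subunits had a median of -0.01, with 0 higher and 0 lower. Hsc70-4, the main cytosolic Hsp70, was the 1 of 14 heat shock chaperones that was lower (-0.68), and Cnx99A, a calnexin, the 1 of 14 genes of the unfolded protein response and endoplasmic reticulum chaperones (-0.66). Their medians were -0.20 and -0.24. Of 12 genes of the integrated stress response, which lowers initiation through eIF2, 3 were lower. These were Gcn2, the kinase that senses uncharged tRNA (-1.14), PPP1R15, which directs the opposing phosphatase (-0.55), and crc, the fly ATF4 (-0.60), and the class median was -0.31, which ran from -0.54 to -0.14 with each array left out in turn. Oxidative phosphorylation subunits (66 tested) had a median of 0.03 with 2 lower, ATPsynC (-0.85) and ATPsynD (-0.45). The 23 vacuolar ATPase subunits had a median of -0.18, and yet their 2 members past the threshold, VhaAC39-2 (0.51) and Vha16-3 (0.48), were higher.

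Regulators of transcription and signalling leaned lower than all features, as did the features of the middle signal bin. Of 67 protein kinases, 54 lay below 0, 15 were lower and 1 was higher, and the median was -0.32. Wnk, gwl and sax, a type I BMP receptor (-1.09), had the smallest p. The kinases had a median change of 0.17 in total RNA and of -0.09 on ribosomes, so that more of the class difference lay in total RNA. Of 85 transcription factors, 16 were lower and 0 higher, with a median of -0.24. br, an ecdysone-induced zinc-finger factor, had -1.13 on its brightest probe set, with its 4 other probe sets between -0.27 and 0.19. jim, another zinc-finger factor, had -0.71, with its other probe sets at -0.40 and -0.81, and Hsf, the heat shock factor, -0.82. Of 43 chromatin regulators, 36 lay below 0, 9 were lower and 0 higher, with a median of -0.36. Asx, of the Polycomb group (-0.93), brm, the ATPase of the fly SWI/SNF complex (-0.78), and Iswi, the ATPase of the NURF and ACF remodellers (-0.83), had the smallest p. The class medians of chromatin regulators were 0.26 in total RNA and -0.01 on ribosomes.

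The JNK pathway had the lowest median of all classes, -0.62 over 16 tested genes, with 6 lower and 0 higher. The 6 include a ligand, a receptor and kinases. egr, the fly TNF, had -0.82 (-1.05 on its other probe set) and its receptor wgn -0.82. msn, a kinase at the head of the cascade, had -0.88, the MAP3 kinases slpr and wnd -0.81 and -0.68, and bsk, the JNK itself, -0.72. None of the 6 kept an unadjusted p under 0.05 in all 8 fits with an array left out, slpr keeping it in 6 and egr and bsk in 2. In these fits egr ran from -1.24 to -0.39 and bsk, which was picked with its value known, from -1.05 to -0.40. The EGFR, Ras and MAPK pathway had a median of -0.46 over 16 genes with 3 lower. These were Nf1, a Ras GTPase-activating protein (-0.64, with its other probe sets at -0.42 and -0.40), the phosphatase csw (-0.76) and the scaffold cnk (-1.03). Insulin and TOR signalling had a median of -0.26 over 14 genes, with chico and S6k (-0.50) lower, and amino acid transporters -0.32 over 12, with CG30394 (-0.93) and mnd (-1.06) lower. Of the 12 transporters, 11 lay below 0. The apoptosis genes (12 tested) had a median of -0.26, autophagy genes (23 tested) -0.04, the Hippo pathway (15 tested) -0.11 and the Wingless pathway (10 tested) -0.10, where wls, which escorts Wingless to the surface, was lower (-1.08).

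Other classes were mixed. Cell cycle and DNA replication genes had 6 lower and 2 higher of 54 and a median of -0.15, with CycB, the mitotic cyclin, at -0.93 and the checkpoint proteins mad2 and Bub3 at -0.57 and -0.52. Splicing factors had 3 lower and 1 higher of 23, Sf3b3 and glo (-0.72) among the lower and U2af38 (0.47) the higher one. Germline and piRNA genes had 7 lower and 0 higher of 22 and a median of -0.28, with spn-E, a piRNA helicase (-0.94), cuff (-0.99) and mael (-0.71) of smallest p. Their median change was 0.40 in total RNA and 0.05 on ribosomes. Of 19 Rab GTPases, 3 were higher, Rab27 (0.78) among them, and 3 lower. Tetraspanins had a median of 0.14 over 22 genes, with Tsp42El (0.69) and Tsp42Ek (0.41) higher and Tsp3A lower. Of 31 long noncoding RNAs, which by definition lack a long coding sequence, 21 lay above 0 and 1 was lower, and the median was 0.10 at a median log2 signal of 3.17.

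Haemocyte markers and immune genes held members at both ends. Of 40 haemocyte markers, 3 were higher, the Nimrod genes given above, and 6 were lower, with a median of -0.16. All 3 laminin subunits of the list, which build the basement membrane, were among the lower ones, LanA at -0.98, LanB1 at -0.90 and LanB2 at -0.83. The subunits were picked with their values known. The immune genes had 3 lower and 2 higher of 33 and a median of -0.05, with the Toll adaptor tub (-0.74) and Sting (-0.72) lower and the caspase Dredd (0.52) higher. Markers of neurons (6 tested), muscle (5 tested) and fat body (6 tested) had 0 lower and 0 higher, with medians of 0.25, 0.03 and 0.14. Their median log2 signals were 2.93, 3.12 and 2.75.

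**Figure D5:**
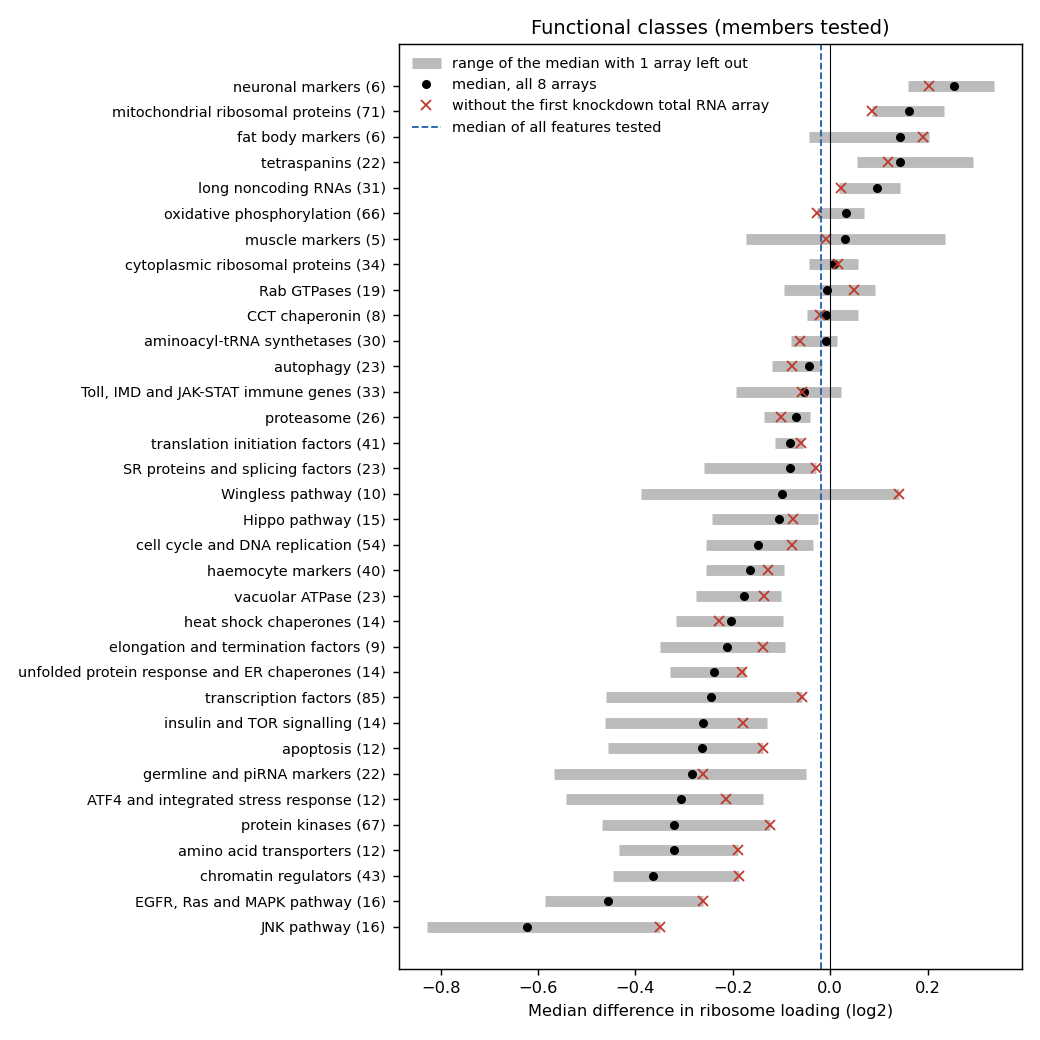
Median loading difference (horizontal axis, log2) of each functional class, with the number of members tested in brackets. Black points use all 8 arrays, grey bars span the medians with each array left out in turn, red crosses leave out the first knockdown total RNA array, and the dashed line marks the median of all features, -0.02. The JNK pathway lies lowest at -0.62 and neuronal markers highest at 0.25.

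The class medians depended on single arrays. With each array left out in turn, the lowest and the highest median both came from leaving out a knockdown total RNA array in 8 of 34 classes, and both from any one of the other 3 groups in 4 classes each. In the remaining 14 they came from different groups. Without the first knockdown total RNA array, the one nearer to the ribosome-bound ones, the median was -0.12 for kinases, -0.06 for transcription factors, -0.19 for chromatin regulators, -0.35 for the JNK pathway, -0.26 for the EGFR pathway and 0.09 for mitochondrial ribosomal proteins. Each was nearer to 0 than with all arrays. Without the second, the medians were further out for the JNK pathway (-0.83), chromatin regulators (-0.44), transcription factors (-0.46) and mitochondrial ribosomal proteins (0.23). The Wingless pathway turned from -0.39 without the second knockdown total RNA array to 0.14 without the first. For each gene, the values without the first and without the second array of a group average to the value with all arrays. Opposite shifts of a class median within a group are therefore not separate observations. Germline genes had their extremes without the control ribosome-bound arrays, at -0.57 without the first and -0.05 without the second, and cell cycle genes without the control total RNA arrays, at -0.26 and -0.04. The elongation and termination factors ran from -0.35 to -0.09 over the knockdown ribosome-bound arrays. The insulin pathway ran from -0.46 to -0.13 over all arrays left out, and the amino acid transporters from -0.43 to -0.19. The medians of the kinase, transcription factor, chromatin, JNK, EGFR, insulin and amino acid transporter classes stayed below 0 in each of the alternatives run, and that of mitochondrial ribosomal proteins above 0.

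The counts moved with the arrays as well. Without the first knockdown total RNA array, 182 features were higher and 312 lower at an unadjusted p under 0.05, and without the second 595 and 1384. Of the 689 lower features with all arrays, 261 were among the 312 and 646 among the 1384. Leaving out a control total RNA array gave a nearly even split for the second (295 higher and 350 lower) and 390 and 1148 for the first. An unadjusted p under 0.05 in all 8 fits with an array left out was found for 221 features (2.15%), 65 higher and 156 lower. All 28 leading genes were among them, as their choice by p favours. Their order was less stable. Of the 14 lower ones, 3 stayed among the 14 of smallest p without the first array of control total RNA and 10 without the first of knockdown total RNA, and of the 14 higher ones between 8 and 12 stayed.

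The loading difference was also read from the arrays numbered 1 and from those numbered 2, which share no array. Across the 10262 features, which are not independent replicates, these values correlated at Pearson r = 0.464 and Spearman rho = 0.445, and 65.7% had the same sign. Within each set of 4 arrays, treatment and fraction effects common to many transcripts are shared by all features. Of the 28 leading genes, whose choice by small p over these same arrays favours agreement, 18 had values within 1.5-fold of each other, such as CG15423 (1.26 and 1.25), chico (-1.38 and -1.34), Sf3b3 (-0.82 and -0.90) and Lsm10 (1.06 and 0.97). The other 10 differed by more, among them CG4269 (1.11 and 0.50), Cyp6a20 (-1.85 and -0.92), gwl (-1.43 and -0.82) and DENR (-2.11 and -3.21). Class medians were -0.52 and -0.50 for the JNK pathway, -0.36 and -0.30 for kinases, -0.33 and -0.29 for chromatin regulators, -0.32 and -0.15 for transcription factors and 0.26 and 0.07 for mitochondrial ribosomal proteins.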

How the data were processed

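Biotinylated cRNA was made by the Affymetrix protocol, per the labels' protocols. RMA, named in the submitters' processing notes without version or settings, gave the deposited signal of each probe set, taken as log2 from its range (0.83 to 12.88). From 18952 probe sets, 183 controls were removed. Of the other 18769, 13646 had 1 symbol, 402 several and 4721 none; 13543 matched RefSeq's gene table (assembly Release 6). For 1094 genes with several probe sets the brightest was used. The brightest 60% of 17104 features, with a mean log2 of at least 2.12, were tested. Means of the 4 groups were fitted with limma 3.58.1 in R 4.3.3, without covariates, with 4 residual and 5.93 prior degrees of freedom; p-values are two-sided, calls use a Benjamini-Hochberg adjusted p under 0.05, and errors are moderated SE, pooled over groups. The design text calls the arrays of a group biological replicates; their number limits the precision. Differences of log2 values are log2 fold changes.

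Named genes were DENR, MCTS1, eIF2D, InR, EcR and mbc, the 14 of smallest p in each direction, any called in an alternative, and up to 3 members of smallest p in each class. Members and lists were chosen with earlier results of these data known, and lists were matched to current symbols and trimmed of mismatched entries once the array's symbols were seen; classes with at least 5 tested members are given. Scripts were tested on simulated data. Figures used matplotlib 3.10.9. Protein lengths and sequences were not used here.

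Same-numbered arrays deviated together within a fraction (correlations of 0.38 and 0.27) and oppositely between fractions (-0.38 to -0.20). The main fit therefore did not take numbers to pair samples across fractions. A pairing of control and knockdown arrays separately within each fraction was not fitted, in the main fit or in the alternatives.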

Additional observations from a re-analysis of the deposited data

How the results depend on the processing

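The count of 0 called features (limma) became 1 without a filter, 1 with the replicate block and 3 under a robust prior with an intensity trend, and ran from 0 to 1 over the arrays left out. The 333 higher features at an unadjusted p under 0.05 became 574 without a filter, 209 with a minimum mean log2 of 5, 561 with quantile normalization, 155 with the replicate block by culture and 205 with culture as random effect, and ran from 132 to 595 over the arrays left out. The 689 lower ones became 423 with a minimum mean log2 of 5 and ran from 286 to 1384 over the arrays left out. With fewer features tested or all of them, the counts change by construction; the cause of the other shifts was not tested. With the replicate block by culture and with culture as random effect, the lower features were 482 each. The replicate block gave 257 higher and 639 lower features. Its 1 called feature was a probe set with several gene symbols (loading difference 1.98), which was also the 1 called without a filter. DENR was not called in either fit. Under the robust prior with an intensity trend, that probe set was called beside DENR and a probe set without a symbol (-1.61). The loading difference of DENR was called with the trend and robust prior (-2.66, adjusted p = 0.0155) and ran from -3.13 to -2.19 over the arrays left out. Of the 133 other named genes, InR, NimB2, NimC1 and eater changed sign: the loading of InR was -0.0115 with array medians centred, -0.0015 with cyclic loess, and -0.0534 to 0.135 over the arrays left out, below 0 without the second control total RNA (-0.0534), first knockdown total RNA (-0.0404), first control ribosome-bound (-0.0309) or second knockdown ribosome-bound array (-0.0384). The loading of NimC1 was 0.31 with quantile normalization, 0.0094 with cyclic loess and -0.149 to 0.141 over the arrays left out. The loading of NimB2 ran from -0.0809 to 0.508 and the loading of eater from -0.369 to 0.0235 over the arrays left out. No call of a named gene other than DENR changed in the 20 alternatives. Of 34 class medians, 21 kept their sign throughout. Leaving out an array leaves a group with 1 array, assumed to vary like the others. The planned description by protein length was not run. Genes near the array medians could not be told from background, since no detection calls were used.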
